A study of Mus musculus with 15 samples.

Results

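Collagens are the main structural proteins of the extracellular matrix: chains with a repeating glycine motif wind into a shared helix, leave the cell as procollagen and assemble into fibrils, networks or filaments. Fibrillar collagens of types I, III and V carry tensile load, type IV collagen forms the sheet of the basement membrane around acini, ducts and vessels, and type VI collagen forms beaded filaments between fibrils and basement membranes. In the pancreas most fibrillar collagen is made by stellate cells and fibroblasts, and type IV chains are also made by epithelium and endothelium. The genes described here are all those whose symbol has the form Col, a type number, a and a chain number, read from the RefSeq accession of each array probe. There were 44 such genes, of which 43 had a probe (Col12a1 had none), on 63 probes. In all, 20660 genes had a probe. Testing required a probe that the scanner software marked as well above background on 3 or more arrays, which left 17347 genes and among them 33 collagen genes. Of these 33, 23 were well above background on all 15 arrays, 4 on 11 to 14 arrays and 6 on 3 to 6 arrays. The 10 that had a probe but were not tested were Col4a3, Col9a3, Col10a1, Col11a1, Col13a1, Col17a1, Col19a1, Col22a1, Col24a1 and Col28a1.

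Messenger RNA of whole pancreas from male C57BL/6J mice was measured on one-colour Agilent arrays, with 4 transgenic mice given cerulein (TG cerulein), 3 transgenic mice given saline (TG saline), 4 wild type mice given cerulein (WT cerulein) and 4 wild type mice given saline (WT saline). Cerulein, a peptide related to cholecystokinin, overstimulates acinar cells and is used to induce pancreatitis. All mice had been fasted for 18 h and got 1 intraperitoneal injection, either of cerulein at 50 µg/kg or of saline; tissue was taken 3 h after it, and the time given for saline mice is 0 h. The series title names betacellulin and its receptor ERBB4. The transgene, its promoter and the number of founder lines are not given in the sources used here. The probe of Btc, the gene of betacellulin, averaged -2.38 ± 0.64 in TG cerulein, -3.86 ± 0.38 in TG saline, -2.87 ± 0.76 in WT cerulein and -4.41 ± 0.80 in WT saline (log2 level, SD). TG and WT mice did not differ in Btc by limma after cerulein (adjusted p = 0.837) or after saline (adjusted p = 1.00), and since the position of the probe within the transcript is not known this checks nothing about the transgene.

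A level is log2 of the processed signal minus the 75th percentile of its array, so 0 is the brightness of the 75th percentile probe and a step of 1 is a doubling. Levels of different probes are not compared with each other. Acinar, duct, islet and mesenchymal markers were measured, as a whole pancreas should hold: Cpa1 lay between 9.64 and 11.64, Ins2 between 7.90 and 9.65, Krt19 between 0.14 and 2.58 and Pdgfra between -1.71 and 1.46. The share of probes well above background ran from 54.9% to 76.1% by array, and the 75th percentile lay between 152 and 529 intensity units. The 15 arrays lie on 3 slides, named here by number, that hold unequal parts of the groups. Slide 2 held 1 TG cerulein and 2 WT cerulein arrays and no saline array. The first principal component of all genes took 40.4% of the variance, and 91.1% of its variance lay between slides. Differences within a slide and from a fit with slide as a block are therefore given beside the results they touch.

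The promoter windows below come from RefSeq's GRCm38.p6 assembly and are written from 250 bases before to 50 bases after the transcription start. They belong to collagen genes that were called by genotype or that share a promoter. Col8a1, 1 of them, could be tested only because it was well above background on TG arrays, which fixed its direction. Col1a2 and Col8a1 were called in the comparison of TG with WT mice after cerulein, and their capitals mark the letters CCAAT and GGGCGG, or their reverse complements ATTGG and CCGCCC. Col4a1 and Col4a2 start 21 bases apart on opposite strands, and their capitals mark the 78 bases that the 2 windows share, each written in its own gene's direction.
Col1a2 (chr6:4505368-4505667, plus strand): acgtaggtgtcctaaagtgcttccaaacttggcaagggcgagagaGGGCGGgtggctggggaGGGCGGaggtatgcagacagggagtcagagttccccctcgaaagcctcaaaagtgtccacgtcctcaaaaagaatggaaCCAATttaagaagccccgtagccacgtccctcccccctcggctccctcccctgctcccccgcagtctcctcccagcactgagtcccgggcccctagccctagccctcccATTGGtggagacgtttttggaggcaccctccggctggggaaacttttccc
Col8a1 (chr16:57754688-57754987, minus strand): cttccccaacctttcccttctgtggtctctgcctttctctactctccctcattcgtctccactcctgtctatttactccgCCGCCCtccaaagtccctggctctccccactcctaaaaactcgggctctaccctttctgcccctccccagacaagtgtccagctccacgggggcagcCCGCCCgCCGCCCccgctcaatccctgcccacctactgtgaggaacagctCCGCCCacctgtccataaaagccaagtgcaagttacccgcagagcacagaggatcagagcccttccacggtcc
Col4a1 (chr8:11312777-11313076, minus strand): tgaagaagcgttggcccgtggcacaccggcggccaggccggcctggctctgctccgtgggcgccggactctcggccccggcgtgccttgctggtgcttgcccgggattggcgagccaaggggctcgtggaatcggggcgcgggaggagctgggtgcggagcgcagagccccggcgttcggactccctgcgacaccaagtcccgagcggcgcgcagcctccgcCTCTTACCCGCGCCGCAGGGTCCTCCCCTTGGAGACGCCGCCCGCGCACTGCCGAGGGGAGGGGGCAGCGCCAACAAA
Col4a2 (chr8:11312555-11312854, plus strand): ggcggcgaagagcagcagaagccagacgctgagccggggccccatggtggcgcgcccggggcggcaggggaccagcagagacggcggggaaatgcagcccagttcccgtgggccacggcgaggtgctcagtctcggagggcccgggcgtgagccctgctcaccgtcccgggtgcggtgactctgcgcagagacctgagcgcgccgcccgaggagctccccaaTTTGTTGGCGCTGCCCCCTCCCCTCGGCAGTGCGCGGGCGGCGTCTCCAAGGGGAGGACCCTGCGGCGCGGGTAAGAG
A window was held for 35 of the 44 collagen genes, and the one of Col1a1 was not among those used here. Col1a2 had CCAAT 2 times, once at -109 in its own direction and once, as ATTGG, at 1 counted from the start, and GGGCGG 2 times at -205 and -188. Col8a1 had GGGCGG 4 times, each on the opposite strand, at -170, -73, -66 and -23. On either strand CCAAT was found in 37.4% of all 32851 windows and in 34.2% of 38 collagen windows, and GGGCGG in 35.7% of all windows and 60.5% of the collagen windows. TATAAA was found in 13.6% of all windows and TGACTCA in 5.20%, against 13.2% and 2.63% of the collagen windows. These matches describe letters in a window and no binding was measured.

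After cerulein, 3 of the 33 tested collagen genes were called higher in TG than in WT pancreas (limma, Benjamini-Hochberg adjusted p below 0.05 over all genes), Col1a1, Col1a2 and Col8a1, and none was called lower. Col8a1 could be tested only because it was well above background on TG arrays, which fixed its direction, so that 2 calls, Col1a1 and Col1a2, are left to set against the background. Over all 17347 genes the same rule called 0.138% higher and 0.00576% lower. The median difference of the 33 collagen genes was 0.19 on the log2 scale, against 0.10 for all genes, and 20 of the 33 lay above 0, against 60.7% of all genes. The 9 tested fibrillar chains ranged over -1.63 to 2.51. Their median over all arrays lay above 0 but fell on Col27a1, which passed the filter only through TG arrays, so its size is not given. Their median was -0.21 within slide 1, 1.90 within slide 2 and 2.09 within slide 3. These medians count Col27a1 and Col2a1, which lay at -0.73 and -2.53 within slide 1. Neither was well above background on the TG cerulein arrays of that slide. The sign of the slide 1 median thus rests in part on unmeasured values and is not read as a direction. The transmembrane collagens Col25a1 and Col23a1 lay at -0.97 and -0.86, neither called. A second probe of Col23a1 gave -0.05, and one of Col25a1, well above background on only 3 arrays, gave -1.22. No test compared the classes. In total 12 collagen genes had an unadjusted p below 0.05, 11 of them higher and 1 lower in TG, against 7.07% of all genes. The 11 include Col8a1, whose direction the filter fixed.

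Type I collagen, the chief protein of fibrous tissue, is made of the chains of Col1a1 and Col1a2. Col1a1 (chromosome 11) stood at 1.35, 3.04, 3.91 and 2.61 on the TG cerulein arrays of replicates 13, 14, 15 and 16, against 1.04, 0.26, -0.61 and 0.17 on the WT cerulein arrays of replicates 9, 10, 11 and 12. The groups did not overlap, and TG replicate 13 came closest to the WT arrays. The group means differed by 2.51 ± 0.46 (SE; adjusted p = 0.0467 by limma), which is 5.71-fold. Col1a2 (chromosome 6) stood at 3.68, 4.78, 5.44 and 4.27 on the TG cerulein arrays, against 3.20, 2.70, 2.30 and 2.32 on the WT cerulein arrays in the same order of replicates. Every TG array again lay above every WT array, and the difference was 1.91 ± 0.34 (SE; adjusted p = 0.0383 by limma), or 3.77-fold. Both genes have 1 probe each, so no second probe could be set against them.

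Col8a1, a chain of the short-chain network collagen that lies under endothelium and around injured vessels, was near the detection limit. It stood at -4.89, -3.31, -2.65 and -3.16 on the TG cerulein arrays of replicates 13 to 16, of which 3 were well above background. On the WT cerulein arrays of replicates 9 to 12 it stood at -6.74, -5.23, -6.82 and -7.10, and none of these was well above background. The fitted difference was 2.98 ± 0.51 (SE; adjusted p = 0.0344 by limma). The WT level is only a bound, taken for each WT array as the dimmest signal that counts as well above background, or the probe's own where that is higher. The mean of the TG cerulein arrays lay 4.87-fold above that bound. This mean includes replicate 13, itself not well above background, so 4.87 is not a strict lower limit. Col8a1 passed the filter only through TG arrays (3 TG cerulein and 1 TG saline of the 15), so that it had to be higher in TG to be tested at all. With normexp background correction and its offset of 50 units, which pulls dim probes together, the difference was 0.47 (adjusted p = 0.632).

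These 3 calls stood close to the threshold and changed with the arrays used. In 15 fits that each left out 1 array, Col1a1 was called in 2 (without TG cerulein replicate 13 or WT cerulein replicate 9), with differences of 2.12 to 2.97 and a highest adjusted p of 0.191. Col1a2 was called in 3 (without either of those or without TG saline replicate 2), with differences of 1.61 to 2.20 and a highest adjusted p of 0.169. Col8a1 was called in 7, with differences of 2.69 to 3.44 and a highest adjusted p of 0.159; it was lost without TG cerulein replicate 14, 15 or 16, WT cerulein replicate 9, 11 or 12, or WT saline replicate 5 or 7. The number of collagen genes called higher was 6 without TG cerulein replicate 13, when Col3a1, Col4a1 and Col4a2 joined the 3, and 0 without TG cerulein replicate 14, 15 or 16, WT cerulein replicate 11 or 12, or WT saline replicate 5 or 7. It was 2 without TG saline replicate 2 or WT cerulein replicate 9, and 1 without TG saline replicate 3 or 4, WT saline replicate 6 or 8, or WT cerulein replicate 10. The share of all genes called was not counted in these 15 fits, so these numbers have no background. With slide as a block 4 were called higher, Col16a1 being added and Col8a1, whose direction the filter fixed, still counted (background 0.519%).

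**Figure D1:**
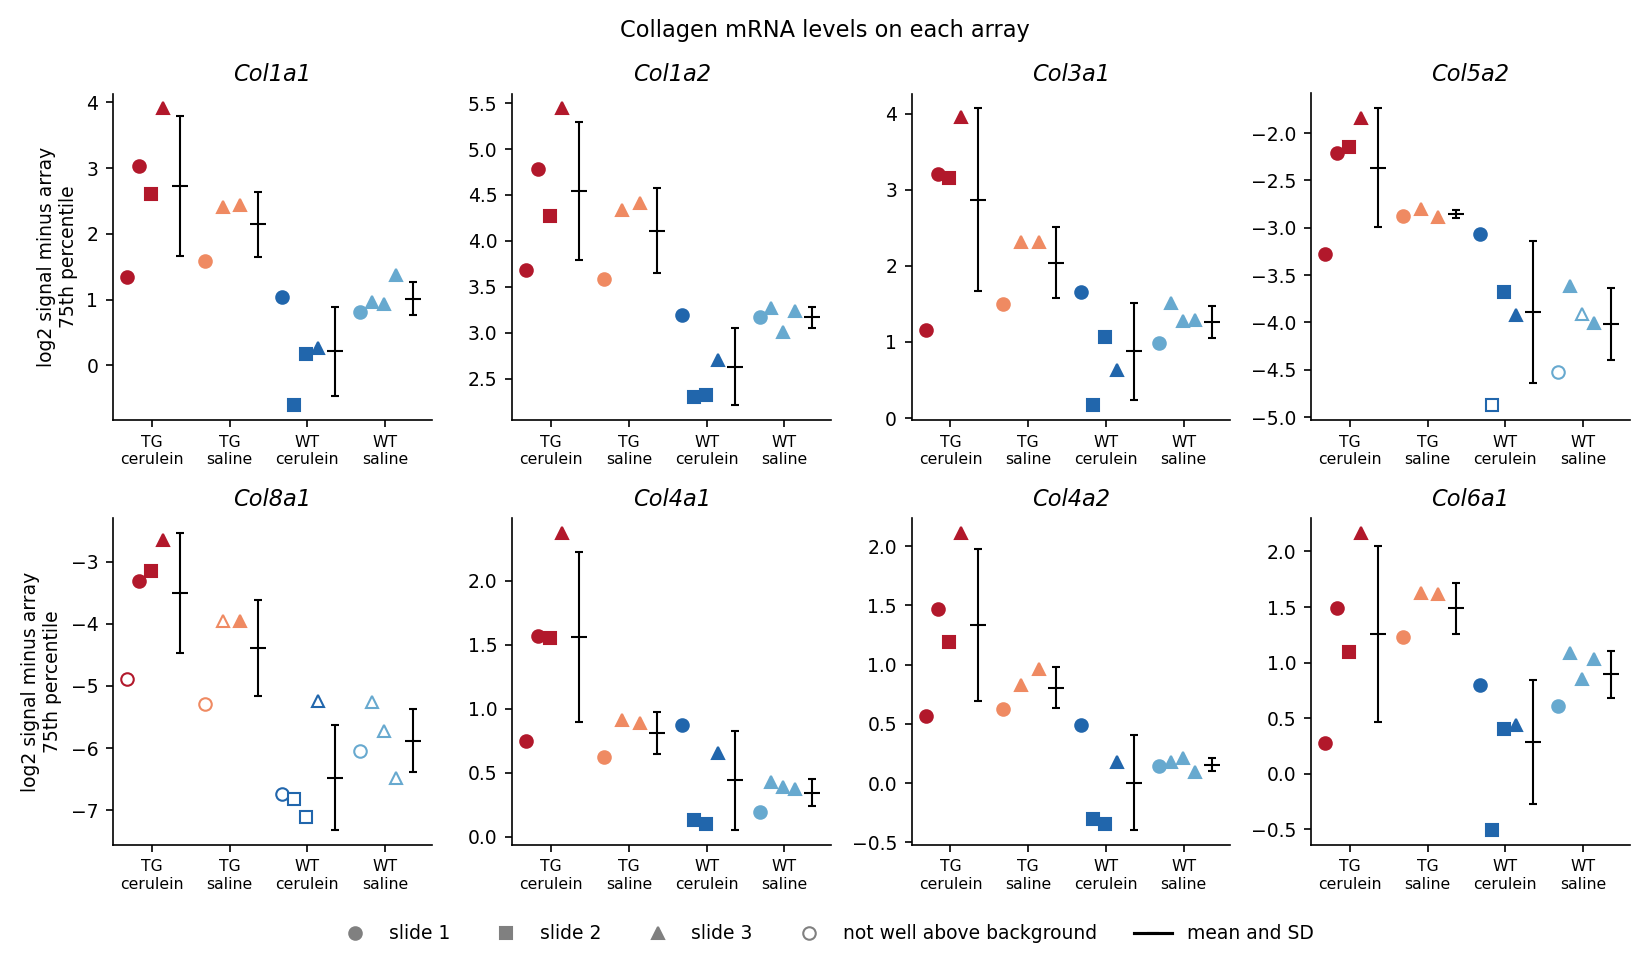
Levels of 8 collagen genes on each of the 15 arrays: the y axis is log2 signal minus the array's 75th percentile, points are arrays shaped by slide, open points are not well above background, and bars give each group's mean and SD. TG cerulein arrays of Col1a1 lie between 1.35 and 3.91 and WT cerulein arrays between -0.61 and 1.04, and the lowest TG cerulein point in every panel is replicate 13.

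The other fibrillar chains that pancreatic fibroblasts make in quantity lay in the same direction but missed the threshold. Col3a1, the chain of type III collagen that forms thin fibrils in soft organs, stood at 1.16, 3.21, 3.96 and 3.16 on the TG cerulein arrays of replicates 13 to 16, against 1.66, 0.63, 0.17 and 1.06 on the WT cerulein arrays of replicates 9 to 12. The other TG arrays lay above every WT array, but replicate 13 lay below WT replicate 9, and the difference of 1.99 ± 0.48 (SE) had an adjusted p of 0.179 by limma. Col5a2, a chain of the type V collagen that nucleates type I fibrils, stood at -3.28, -2.21, -1.84 and -2.14 on the TG cerulein arrays, against -3.07, -3.92, -4.88 and -3.68 on the WT cerulein arrays. Its difference was 1.52 ± 0.37 (SE; adjusted p = 0.179 by limma), and again only replicate 13 of TG fell within the WT range. The partner chain Col5a1 differed by 0.66 ± 0.29 (SE; adjusted p = 0.680 by limma), with -2.40 to -1.18 in TG cerulein and -2.87 to -1.69 in WT cerulein. Col5a3 differed by 0.71 ± 0.61. Col27a1 was well above background on 2 of 4 TG cerulein arrays and on 0 of 4 WT cerulein arrays, passed the filter only through TG arrays, and is given no difference. The cartilage collagens Col2a1 (-1.63 ± 0.83) and Col11a2 (-0.27) were not higher in TG.

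Detection of Col2a1, which builds cartilage fibrils, varied with the slide and, within slide 1, with the genotype. It was well above background on 5 arrays, namely all 3 arrays of slide 2 (TG cerulein replicate 16 at -1.95, WT cerulein replicates 11 and 12 at -2.09 and -1.82) and 2 of slide 1 (WT cerulein replicate 9 at -2.87 and WT saline replicate 5 at -2.51). On the TG arrays of slide 1 it was not (TG cerulein replicates 13 and 14 at -5.27 and -5.54, TG saline replicate 2 at -4.22). On no array of slide 3 was it well above background.

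Among the type IV chains none was called. Col4a1 and Col4a2 (chromosome 8), whose products form the ubiquitous basement membrane helix and whose shared promoter is printed above, differed by 1.12 ± 0.29 and 1.33 ± 0.28 after cerulein (SE; adjusted p = 0.226 and 0.116 by limma). Col4a1 stood at 0.74, 1.57, 2.37 and 1.55 on the TG cerulein arrays of replicates 13 to 16, against 0.87, 0.66, 0.13 and 0.10 on the WT cerulein arrays of replicates 9 to 12. Col4a2 stood at 0.57, 1.47, 2.11 and 1.19 on the TG cerulein arrays, against 0.49, 0.18, -0.30 and -0.35 on the WT cerulein arrays. The groups of Col4a2 did not overlap, by a small margin at replicate 13, and those of Col4a1 did. Over all genes 1.57% had every TG cerulein array above every WT cerulein array and 0.945% had every one below, and among the 33 collagens this held for 5 above (Col1a1, Col1a2, Col4a2, Col8a1 and Col16a1) and 0 below. Of the 5, Col8a1 had its direction fixed by the filter. Col4a5, Col4a4 and Col4a6, chains found mainly in kidney, eye and smooth muscle basement membranes, differed by 0.16, -0.24 and -0.23. A second probe of Col4a6 gave 0.36, so that its direction depends on the probe.

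Type VI chains assemble as a trimer of the products of Col6a1, Col6a2 and one longer chain. None was called. Col6a1 stood at 0.28, 1.49, 2.17 and 1.09 on the TG cerulein arrays of replicates 13 to 16, against 0.80, 0.44, -0.50 and 0.40 on the WT cerulein arrays of replicates 9 to 12, a difference of 0.97 ± 0.35 (SE; adjusted p = 0.517 by limma). Col6a3 differed by 0.81 ± 0.47 and ranged over -1.88 to 0.41 in TG cerulein and over -1.96 to -0.31 in WT cerulein. Col6a2, the neighbour of Col6a1 on chromosome 10 and a chain of the same trimer, differed by 0.20 ± 0.26. The long chains Col6a4, Col6a5 and Col6a6, neighbours on chromosome 9, differed by -0.38, 0.37 and -0.68.

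Among the fibril-associated collagens, which sit on the surface of fibrils, Col16a1 differed by 1.09 ± 0.25 after cerulein (SE; adjusted p = 0.163 by limma, and 0.0140 with slide as a block). It is described because its call changed with the block, after its values were seen. It stood at 0.60, 1.20, 1.58 and 0.85 on the TG cerulein arrays of replicates 13 to 16, against 0.28, 0.34, -0.43 and -0.32 on the WT cerulein arrays of replicates 9 to 12, without overlap. The 2 dimmer probes of Col16a1 did not show this: one, also well above background on all 15 arrays, differed by 0.23 ± 0.24, and one, detected on 3 arrays, by -0.60 ± 0.30. Col14a1 differed by -0.19 ± 0.21 on its brighter probe and by 0.99 ± 0.32 on its other probe, so that its direction depends on the probe. Col9a1, Col9a2 and Col20a1 lay between -0.17 and 0.17 on the probes used. Second probes gave -0.60 ± 0.39 for Col9a1, detected on 6 arrays, and 0.28 ± 0.43 for Col20a1.

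Col18a1, the basement membrane multiplexin whose end fragment is endostatin, stood at -0.87, 0.37, 1.15 and 0.44 on the TG cerulein arrays of replicates 13 to 16, against -0.73, -0.49, -1.73 and -1.01 on the WT cerulein arrays of replicates 9 to 12. The difference was 1.26 ± 0.40 (SE; adjusted p = 0.392 by limma) and replicate 13 fell within the WT range. A second Col18a1 probe gave 1.48 ± 0.34. Col15a1, the other multiplexin, differed by 0.15 ± 0.30. Col8a2, which pairs with Col8a1, differed by -0.44 ± 0.64 on its brighter probe and by 1.10 ± 0.55 on its dimmer one. The anchoring fibril gene Col7a1 differed by 0.19, and Col26a1, detected on 5 arrays, by -1.16.

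**Figure D2:**
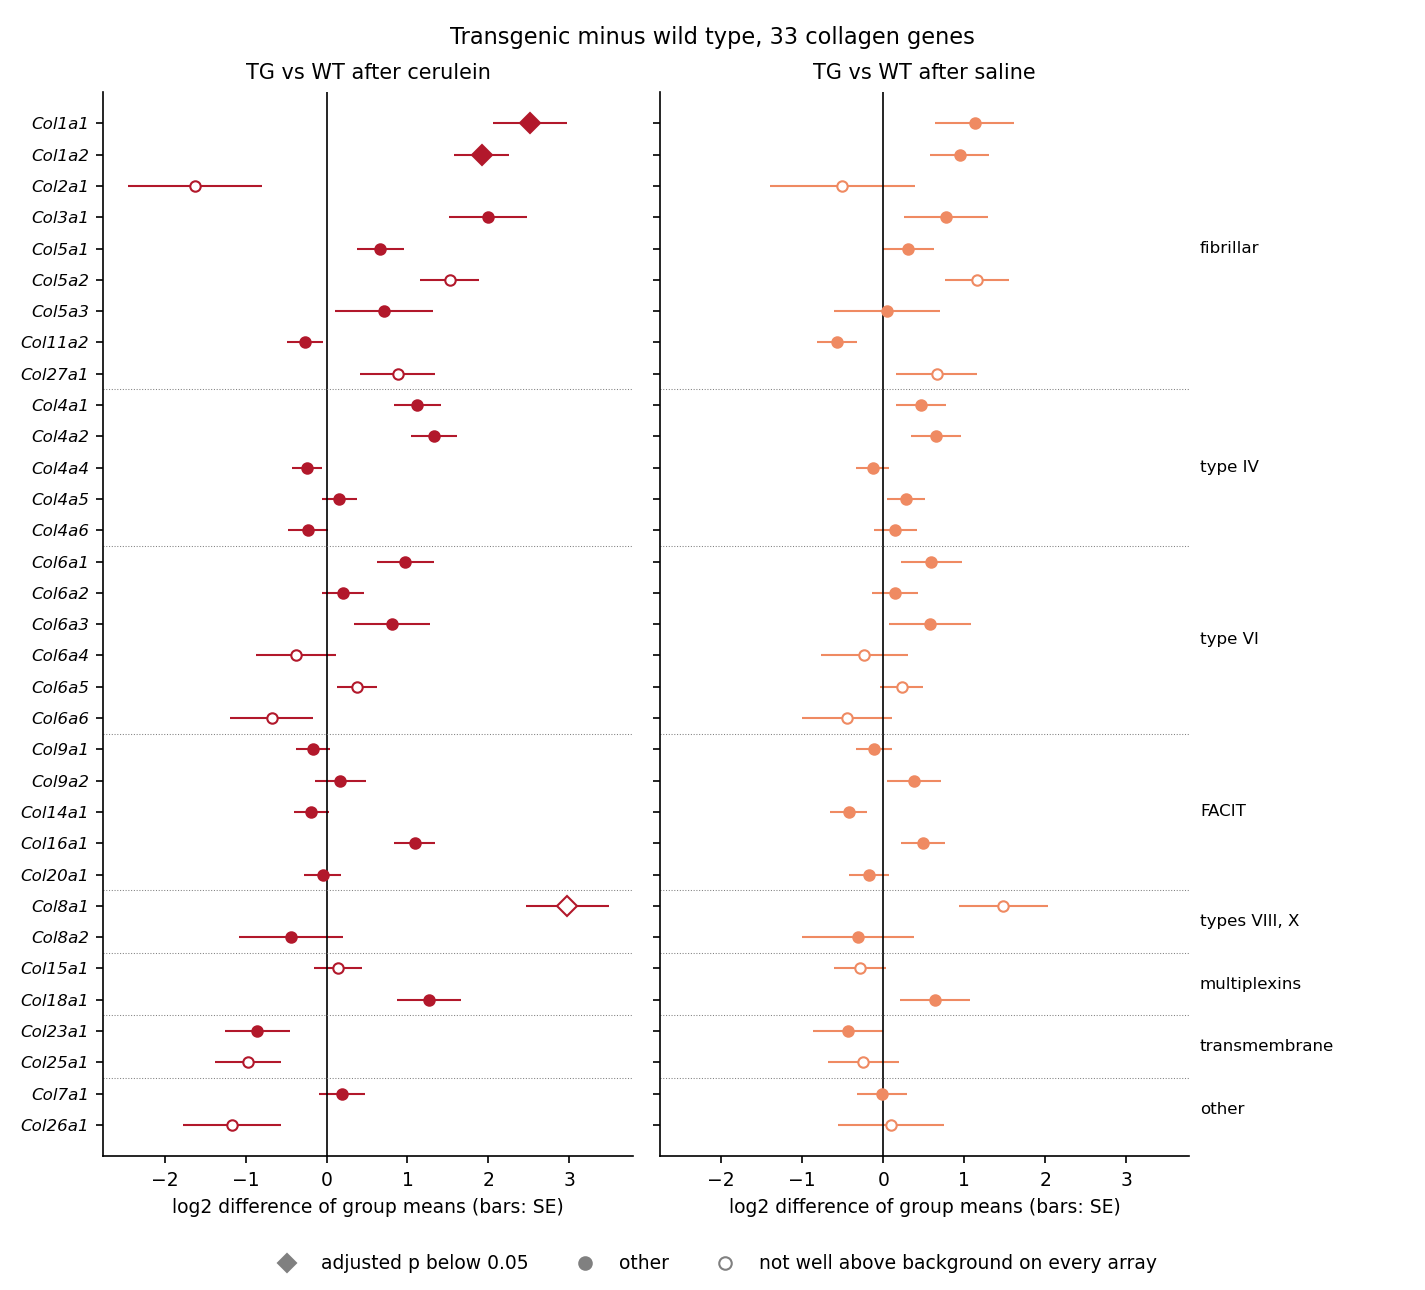
Log2 differences of TG minus WT group means with SE for the 33 tested collagen genes, after cerulein on the left and after saline on the right, grouped by collagen class; diamonds mark an adjusted p below 0.05 and open symbols genes not well above background on every array. Col8a1 (2.98, with a WT level that is only a bound), Col1a1 (2.51) and Col1a2 (1.91) are marked on the left and no gene on the right.

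The size of the genotype difference varied with the slide. Slide 1 held 2 TG cerulein and 1 WT cerulein arrays, slide 2 held 1 and 2, and slide 3 held 1 and 1. For Col1a1 the difference was 1.15 within slide 1, 2.83 within slide 2 and 3.65 within slide 3. For Col1a2 it was 1.03, 1.96 and 2.74, and for Col8a1 2.64, 3.81 and 2.59 in the same order. Col1a1 and Col1a2 were higher in TG within every slide. Col8a1 was too, but the filter fixed its direction and its WT level is only a bound. Col1a1, Col1a2 and Col3a1 (0.53, 2.55 and 3.33) differed least within slide 1. That slide holds TG cerulein replicate 13 and 1 WT cerulein array, replicate 9. Replicate 9 was the highest WT cerulein array for 16 of the 33 collagen genes. The part of each array in the smaller difference was not tested. Across the 33 genes the median was -0.01 within slide 1, 0.31 within slide 2 and 0.78 within slide 3. With slide as a block the differences were 2.44 ± 0.44 for Col1a1, 1.83 ± 0.30 for Col1a2 and 3.00 ± 0.42 for Col8a1 (SE; adjusted p = 0.0338, 0.0201 and 0.00917 by limma). Without the 3 arrays of slide 2 no collagen gene was called, and Col1a1 differed by 2.12 (adjusted p = 0.540), Col1a2 by 1.69 (adjusted p = 0.495) and Col8a1 by 2.37 (adjusted p = 0.573).

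**Figure D3:**
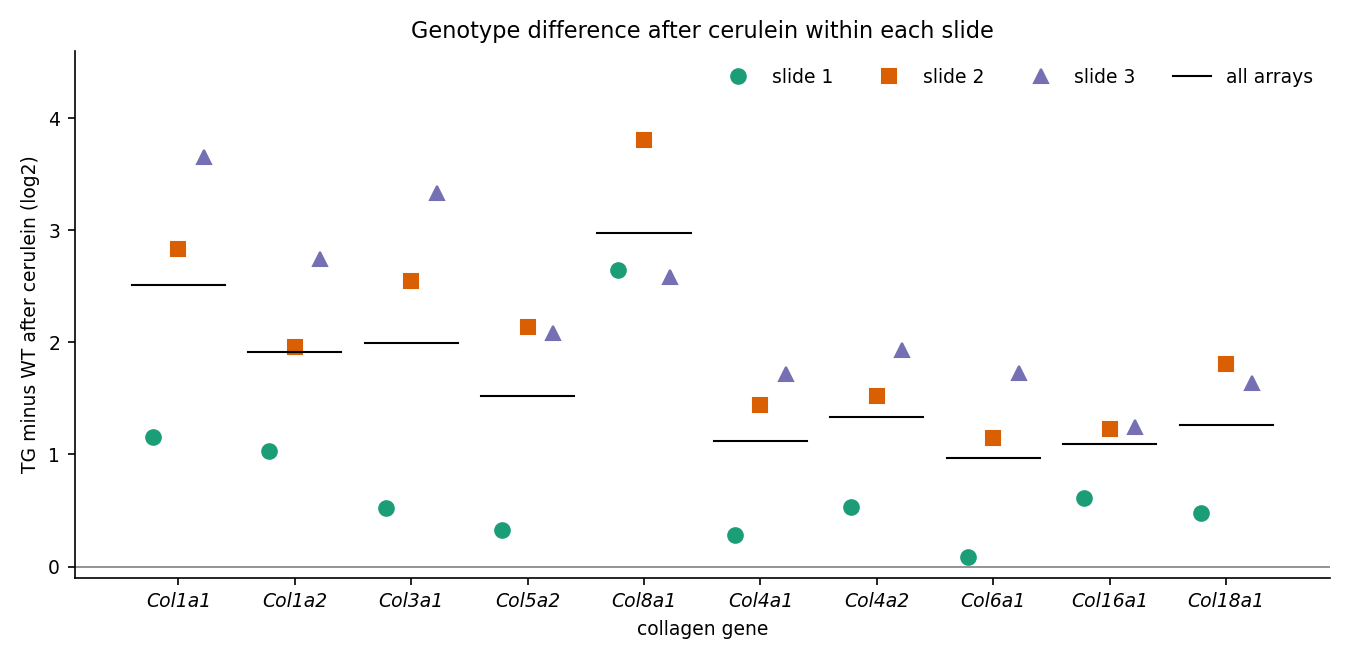
TG minus WT differences after cerulein (y axis, log2) for 10 collagen genes, within each of the 3 slides (symbols) and over all arrays (black bars). Every symbol lies above 0, and the slide 1 value is the lowest of the 3 for 9 of the 10 genes, from 0.08 for Col6a1 to 1.15 for Col1a1. The 10 genes are a selection and include Col8a1, whose direction the filter fixed. Of the described genes not drawn, Col5a1, Col6a3 and Col15a1 lay at -0.21, -0.86 and -0.06 within slide 1. Col15a1 also lay at -0.21 within slide 2, and Col6a2 lay above 0 within every slide.

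Within the TG cerulein group the collagens separated replicate 13 from the other arrays. It was the lowest of the 4 for 19 of the 33 collagen genes and for 7 of the 9 fibrillar ones, against 21.9% of all genes. Replicate 15 was the highest for 16 of the 33, against 52.4% of all genes. In WT cerulein, replicate 11 was the lowest for 14 of the 33 and for 7 of the 9 fibrillar genes, against 31.0% of all genes, and replicate 9 was the highest for 16 of the 33, against 13.4% of all genes. The SD among TG cerulein arrays was 1.07 for Col1a1 and 1.20 for Col3a1, against 0.68 and 0.64 among WT cerulein arrays. Among saline arrays it was 0.49 and 0.47 in TG, against 0.25 and 0.21 in WT.

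After saline no collagen gene was called in TG against WT pancreas, where the rule called 0.0749% of all genes, all of them higher. None was called in any of 15 fits that left out 1 array. Array weights called 5 higher and 1 lower, but the share of all genes they called was not counted. With unadjusted p below 0.05 by limma there were 5, of which 4 were higher (Col1a1, Col1a2, Col5a2 and Col8a1) and Col11a2 was lower, against 3.22% of all genes. Of the 4, Col8a1 had its direction fixed by the filter. The collagens with the largest differences after cerulein also lay higher after saline, at a smaller size. Col1a1 stood at 1.58, 2.41 and 2.44 on the TG saline arrays of replicates 2, 3 and 4, against 0.80, 0.96, 0.93 and 1.37 on the WT saline arrays of replicates 5 to 8. The groups did not overlap, and the difference was 1.13 ± 0.49 (SE; adjusted p = 1.00 by limma). Col1a2 stood at 3.58, 4.34 and 4.42 on the TG saline arrays, against 3.17, 3.26, 3.01 and 3.23 on the WT saline arrays, a difference of 0.94 ± 0.36. Col5a2 stood at -2.87, -2.81 and -2.89 on the TG saline arrays, against -4.53, -3.61, -3.92 and -4.01 on the WT saline arrays, a difference of 1.16 ± 0.40. Col5a2 was well above background on all 3 TG saline arrays and on 2 of the 4 WT saline arrays. Col8a1 was well above background on 1 TG saline array and on no WT saline array, at -5.29, -3.95 and -3.95 in TG and -6.05, -5.26, -5.73 and -6.48 in WT. These groups overlapped and both were mostly unmeasured, so no fold is given (adjusted p = 1.00 by limma).

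Every TG saline array lay above every WT saline array for 7 of the 33 collagens (Col1a1, Col1a2, Col4a1, Col4a2, Col5a2, Col6a1 and Col16a1), against 4.42% of all genes. Every TG saline array lay below for 3 (Col11a2, Col14a1 and Col23a1), against 2.21%. Some of these depend on the probe. Second probes gave 0.52 for Col14a1 and -0.13 for Col23a1, against -0.43 for each on the probe used. For Col16a1, at 0.49 on the probe used, the other probes gave 0.12 and, detected on 3 arrays, -1.31. Col4a1 stood at 0.62, 0.91 and 0.89 in TG saline, against 0.19, 0.43, 0.39 and 0.37 in WT saline. Col4a2 stood at 0.63, 0.83 and 0.97 in TG saline, against 0.15, 0.18, 0.21 and 0.09 in WT saline. Their differences of 0.47 ± 0.31 and 0.65 ± 0.31 were smaller than after cerulein, and the median over the 33 collagens was 0.15, against 0.00 over all genes, with 20 of the 33 above 0, against 50.7% of all genes. Within slide 1 and within slide 3 Col1a1 differed by 0.78 and 1.34, Col1a2 by 0.41 and 1.21, and Col4a2 by 0.48 and 0.74.

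Since the saline and cerulein arrays come from different mice, the genotype difference was also averaged over both treatments, a comparison added after the values were seen. It called 4 of the 33 collagens higher and 0 lower, against 0.542% of all genes higher and 0.0288% lower. They were Col1a2 (1.43 ± 0.25, adjusted p = 0.0169), Col1a1 (1.82 ± 0.34, adjusted p = 0.0240), Col5a2 (1.34 ± 0.27, adjusted p = 0.0389; SE, limma) and Col8a1, whose direction the filter fixed and whose WT level is only a bound, so that no size is given. Without the 3 arrays of slide 2 none of the 4 was called. Array weights called 9 higher and 1 lower, but the share of all genes they called was not counted. Col4a2 (0.99 ± 0.21) had an adjusted p of 0.0505, Col16a1 one of 0.0735, Col3a1 one of 0.111 and Col4a1 one of 0.140. With slide as a block 8 were called, Col4a1, Col4a2, Col16a1 and Col18a1 being added, against 2.25% of all genes, and 0 were called lower, against 1.05%. The 8 include Col8a1. The averaged difference lay above 0 for 19 of the 33, against 58.2% of all genes. Col25a1 was not called lower on the probe used (-0.61). Its second probe, well above background on only 3 arrays, gave -1.19 ± 0.23 in a fit of all kept probes with a symbol (SE, adjusted p = 0.0354 by limma). In the fits without 1 array Col1a2 and Col8a1 were called in 13 of 15 and lost without TG saline replicate 3 or 4. Col1a1 was called in 8, and lost without TG saline replicate 3 or 4, TG cerulein replicate 14, WT saline replicate 5, 6 or 7 or WT cerulein replicate 12. Col5a2 was called in 3, without TG cerulein replicate 13 or WT cerulein replicate 9 or 10. The number called was 8 without TG cerulein replicate 13, 6 without WT cerulein replicate 10, 2 without TG cerulein replicate 14, WT cerulein replicate 12 or WT saline replicate 5, 6 or 7, and 0 without TG saline replicate 3 or 4. For these fits too the share of all genes called was not counted, so the numbers have no background.

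Against saline, no collagen gene was called after cerulein in either genotype. In TG mice none of the 33 was called by limma, where the rule called 8.19% of all genes, 4.78% higher and 3.41% lower, and 1, Col4a1, had an unadjusted p below 0.05, against 21.8% of all genes. In WT mice none was called, where the rule called 5.63% of all genes higher and 8.31% lower, and 0 had an unadjusted p below 0.05, against 31.1% of all genes. No collagen gene had groups that did not overlap in either genotype, against 9.94% of all genes higher and 11.6% lower in TG and 7.35% higher and 10.1% lower in WT. The median difference of cerulein minus saline was 0.13 in TG and -0.03 in WT, against -0.06 for all genes in both. It lay above 0 for 19 of the 33 in TG and 16 of the 33 in WT, against 46.1% and 46.3% of all genes. With slide as a block none was called lower in TG or WT, against 8.34% and 7.78% of all genes.

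Col1a1, Col1a2 and Col3a1 lay above saline in TG and below it in WT over all arrays, none beyond the spread, and the sign in WT changed with the slide. Col1a1 averaged 2.73 ± 1.07 in TG cerulein and 2.14 ± 0.49 in TG saline (SD, n = 4 and 3), a difference of 0.58 ± 0.49 (SE). It averaged 0.21 ± 0.68 in WT cerulein and 1.02 ± 0.25 in WT saline (SD, n = 4 each), a difference of -0.80 ± 0.46 (SE). Col1a2 differed by 0.43 ± 0.36 in TG and by -0.54 ± 0.34 in WT. Col3a1 differed by 0.83 ± 0.52 in TG and by -0.39 in WT. Within slide 1 the WT differences were 0.23 for Col1a1, 0.03 for Col1a2 and 0.67 for Col3a1, and within slide 3 they were -0.83, -0.47 and -0.73. With slide as a block they were -0.35, -0.15 and -0.15 in WT, and the TG differences were 0.91, 0.69 and 1.05. Col4a1 differed by 0.75 ± 0.31 in TG (adjusted p = 0.175 by limma) and by 0.10 in WT, and with slide as a block its TG difference of 0.97 ± 0.27 was called (adjusted p = 0.0236), where 15.2% of all genes were called higher. Tested directly, the cerulein difference in TG minus that in WT was 1.38 ± 0.67 for Col1a1, 0.97 ± 0.49 for Col1a2 and 1.21 ± 0.71 for Col3a1 (SE; adjusted p = 1.00 for each by limma). No collagen gene was called in that test and 0 had an unadjusted p below 0.05, against 0% and 0.772% of all genes. The difference of responses lay above 0 for 21 of the 33, against 57.9% of all genes.

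**Figure D4:**
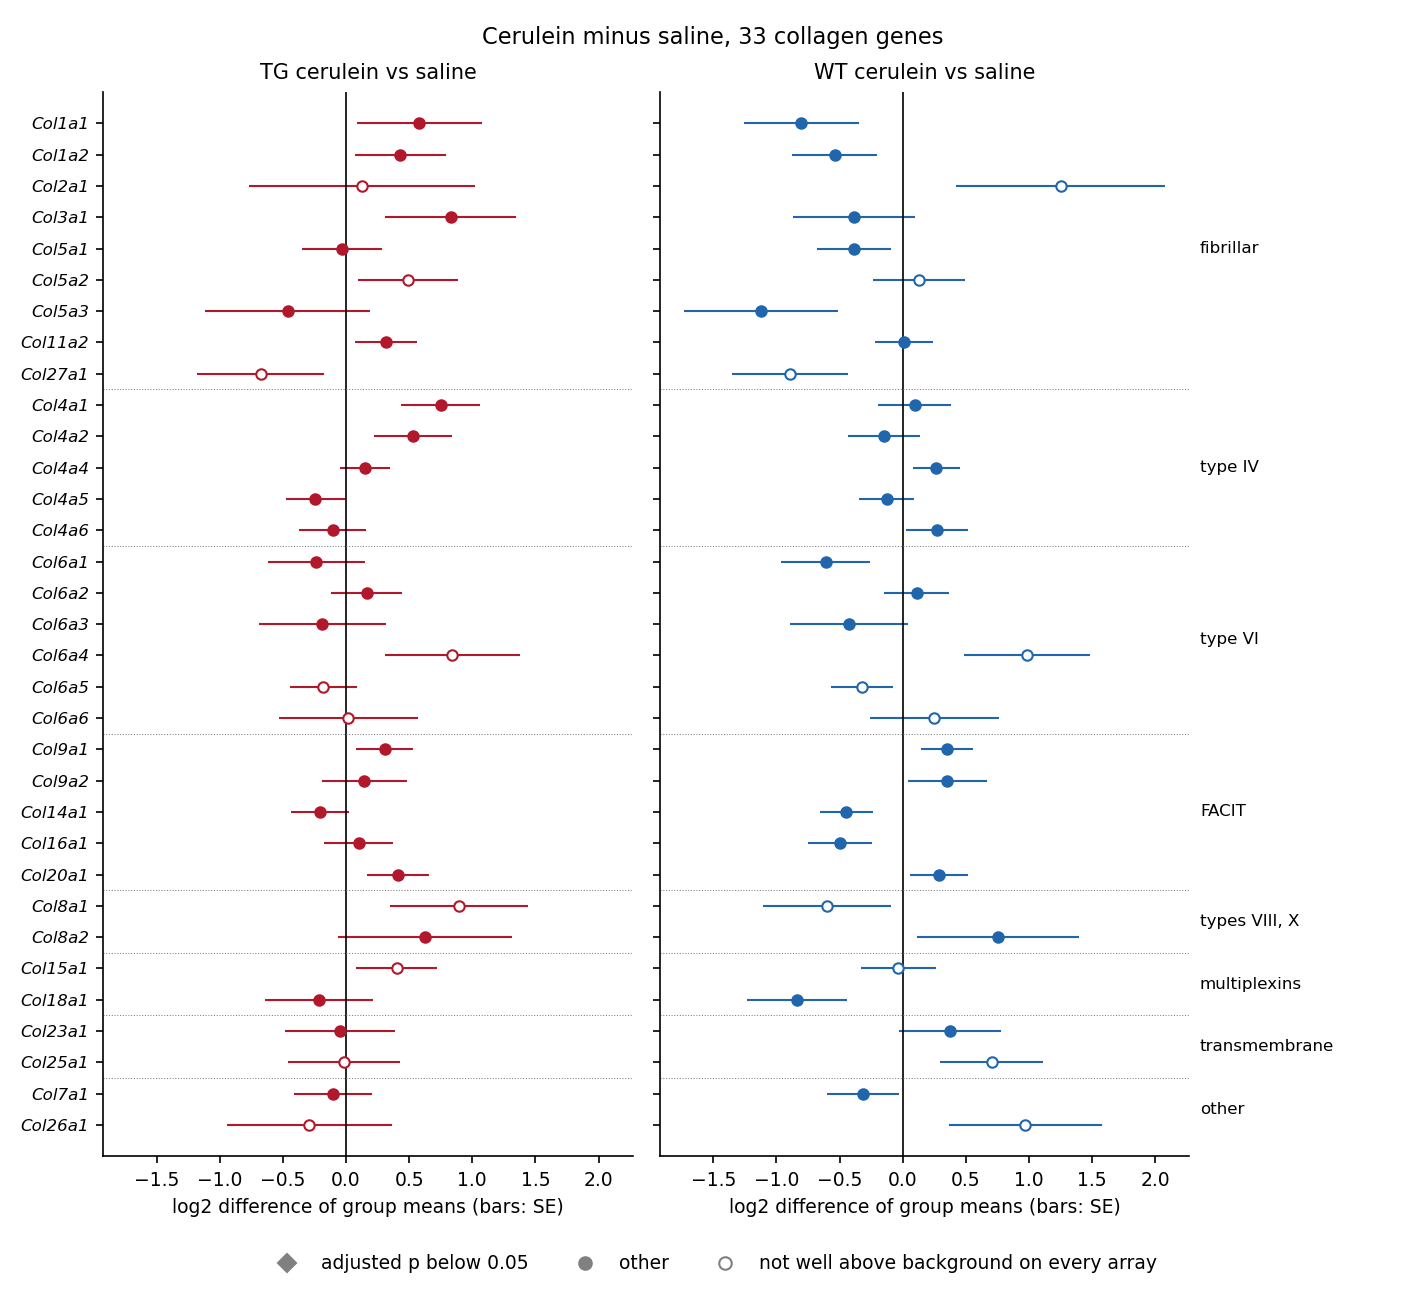
Log2 differences of cerulein minus saline group means with SE for the 33 tested collagen genes, in TG mice on the left and WT mice on the right, grouped by collagen class. No gene is marked with a diamond (adjusted p below 0.05), and Col1a1 lies at 0.58 in TG and -0.80 in WT.

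Genes that fold, export, process and bind collagen were read from 6 lists with 72 of 74 members tested. Tll2 and Adamts3, both of the list of processing enzymes, were not. Between genotypes, of the prolyl and lysyl hydroxylases and chaperones of the endoplasmic reticulum 0 of 19 were called after cerulein or saline by limma, with medians of 0.13 and 0.01. Over all genes the shares called in these comparisons were 0.138% higher after cerulein and 0.0749% after saline, and 0.542% in the average over both. Of 12 processing and cross-linking genes, 1 was called after cerulein and 0 after saline. It was Pcolce, which enhances the cleavage of the C-terminal propeptide of fibrillar procollagens. Pcolce stood at 2.43, 3.04, 3.42 and 2.79 on the TG cerulein arrays of replicates 13 to 16, against 1.60, 1.65, 0.56 and 1.06 on the WT cerulein arrays of replicates 9 to 12. The difference was 1.70 ± 0.31 (SE; adjusted p = 0.0467 by limma), and it was called in 3 of 15 fits without 1 array. Averaged over both treatments it was 1.40 ± 0.23 (adjusted p = 0.0104) and called in 15 of 15. The cross-linking oxidase Lox differed by 0.16 after cerulein.

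Of 10 fibril-associated proteoglycans and matrix partners, 1 was called after cerulein and 0 after saline, and the list's median was 1.07 after cerulein and 0.34 after saline. The called gene was Lum, the small leucine-rich proteoglycan lumican that binds collagen fibrils. Lum stood at 1.34, 2.50, 2.87 and 2.35 on the TG cerulein arrays of replicates 13 to 16, against 0.43, -0.17, -0.80 and -0.57 on the WT cerulein arrays of replicates 9 to 12. It stood at 1.48, 2.58 and 2.74 on the TG saline arrays, against -0.10, 0.69, 0.67 and 0.96 on the WT saline arrays. The groups overlapped after neither treatment, with differences of 2.54 ± 0.39 after cerulein (SE; adjusted p = 0.0133 by limma, called in 11 of 15 fits without 1 array) and 1.71 ± 0.42 after saline (adjusted p = 0.397). Fn1, the fibronectin gene, differed by 1.74 ± 0.32 (adjusted p = 0.0517) after cerulein, Sparc by 1.49 ± 0.35 (adjusted p = 0.169) and Dcn, the decorin gene, by 1.06 ± 0.30 (adjusted p = 0.310). Bgn, the biglycan gene, lay the other way at -1.01 ± 0.57. Of 16 TGF-beta ligands, receptors and targets, 1 was called after cerulein and 0 after saline: Ccn2, the matricellular factor CTGF, at 1.15 ± 0.19 (SE; adjusted p = 0.0260), called in 6 of 15 fits without 1 array. Of 9 export genes and 6 receptor genes 0 were called in either genotype comparison, with medians after cerulein of 0.27 and 0.26.

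Some genes of the same lists were called after cerulein against saline, where the shares over all genes were 4.78% higher and 3.41% lower in TG and 5.63% higher and 8.31% lower in WT. In TG mice 1 of 19 hydroxylation and folding genes, 1 of 6 receptor genes and 2 of 16 TGF-beta genes were called higher. Over the 72 list genes this is close to the share over all genes. The rises in either genotype are not read as a result about the lists. P4ha2, a catalytic subunit of prolyl 4-hydroxylase, averaged 2.47 ± 0.49 in TG cerulein and 0.72 ± 0.05 in TG saline (SD), and 2.50 ± 0.57 in WT cerulein and 0.99 ± 0.25 in WT saline. It rose by 1.75 ± 0.32 in TG and 1.51 ± 0.29 in WT (SE; adjusted p = 0.00297 and 0.00347 by limma). The TGF-beta feedback gene Skil rose by 1.57 in TG and 1.75 in WT, Ccn2 by 1.10 in TG and 0.85 in WT, and Ddr1, a collagen-activated receptor tyrosine kinase, by 1.07 in TG and 1.30 in WT. Without 1 array Ddr1 was called in 4 of 15 fits in TG. In WT mice 4 of the 72 list genes fell, no more than the share over all genes: Creb3l1, a transcription factor of collagen production in bone, by 1.45, the basement membrane gene Nid2 by 1.12 (called in 10 of 15 fits without 1 array), Loxl3 by 0.86 (7 of 15) and Plod1, a lysyl hydroxylase, by 0.60 (4 of 15). In TG mice they differed by -0.998, -0.29, -0.60 and -0.36 in that order, none called. Nid2 and Loxl3 were not called with slide as a block (adjusted p = 0.0733 and 0.113). Serpinh1, the collagen chaperone HSP47, differed by 1.78 ± 0.53 in TG and 1.36 ± 0.49 in WT (SE; adjusted p = 0.0514 and 0.0769 by limma), and was called in both with slide as a block (adjusted p = 0.00448 and 0.00986).

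**Figure D5:**
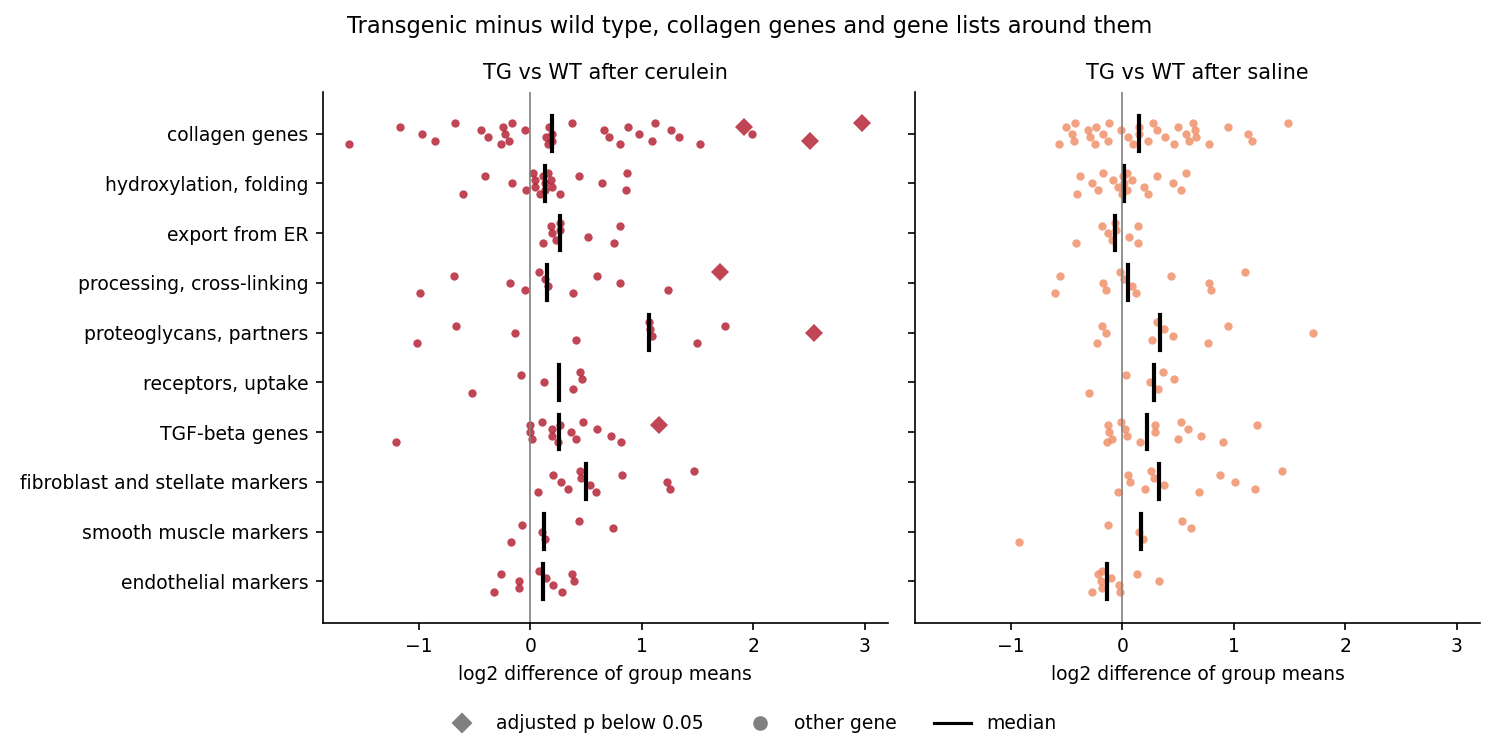
TG minus WT log2 differences (x axis) after cerulein and after saline for the collagen genes, 6 lists of genes of the collagen pathway and 3 lists of cell type markers; each point is a gene, diamonds have an adjusted p below 0.05 and black bars are medians. The proteoglycan and matrix partner list has the highest median after cerulein, 1.07, and fibroblast and stellate markers have medians of 0.50 after cerulein and 0.33 after saline.

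Markers of cells that the pancreas holds were read beside the collagens. Of 12 fibroblast and stellate cell markers, none of them a collagen, all 12 were tested and 12 lay above 0 after cerulein and 11 after saline, with medians of 0.50 and 0.33, against 0.10 and 0.00 for all genes. None was called by limma after either treatment. With slide as a block Pdgfra, Pdgfrb and Mfap5 were called after cerulein, against 0.519% of all genes, and Pdgfra after saline, against 0.231%. In the average over both, 3 were called, Pdgfra (1.45), Pdgfrb (1.22) and Mfap5 (1.12), against 0.542% of all genes. Pdgfra stood at 0.21, 0.64, 1.46 and 0.55 on the TG cerulein arrays of replicates 13 to 16, against -0.05, 0.05, -1.71 and -1.31 on the WT cerulein arrays of replicates 9 to 12. The summed linear level of the 12 markers, in units of the array's 75th percentile, lay between 19.5 and 33.6 in TG cerulein, 23.2 and 31.6 in TG saline, 9.66 and 20.03 in WT cerulein and 16.5 and 23.6 in WT saline. In whole-organ RNA, more or fewer cells of a type and more or less RNA per cell cannot be told apart, and the part of these markers in the collagen differences was not tested. Smooth muscle markers (6 of 7 tested) had medians of 0.12 after cerulein and 0.17 after saline, and endothelial markers (10 of 10 tested) 0.11 and -0.14, with none called. The other 9 marker lists (acinar, duct, islet, adipocyte, macrophage, lymphocyte, mesothelium, Schwann and red blood cell) had medians of -0.26 to 0.51 after cerulein and -0.34 to 0.50 after saline, highest for islet cells after both treatments, with none called. Islet markers (9 of 9 tested) thus had medians as high as those of fibroblast and stellate cells, and in the average over both treatments 0.55, against 0.36 for fibroblast and stellate cells. With slide as a block 1 islet marker was called higher after cerulein. In the average with that block, 4 of 9 islet, 4 of 12 fibroblast and stellate, 1 duct and 1 macrophage marker were called higher, against 2.25% of all genes. There 1 lymphocyte marker was called lower, against 1.05%.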

How the data were processed

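The authors' scanner output gives, per the file headers, a processed signal in units of fluorescence intensity for each spot, which Agilent Feature Extraction 10.7.3.1 made by subtracting background and correcting spatial trends within an array. Flags (other: 0 or 1 per spot) for being well above background, saturated or an outlier are deposited beside it. The deposited series table holds the authors' log2 values of the same arrays, served as an alternative, and had column medians of 6.56 to 6.93; what was done to it between arrays is unknown. Of 59305 spots per array, the 105 to 188 with an outlier flag were left out, none was saturated, and spots of a probe were averaged in log2 to 55681 probes. Accessions matched 1 symbol for 27235 probes and none for 28446. The array's 75th percentile was subtracted, probes well above background on at least 3 arrays were kept, and each gene was read from its brightest kept probe. Probe positions are not known.

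The 4 group means of all 15 arrays were fitted with limma 3.58.1 in R 4.3.3 (lmFit, eBayes, two-sided, no covariate, 11 residual degrees of freedom plus 3.54 prior ones), with Benjamini-Hochberg adjustment over 17347 genes within each comparison and a threshold of 0.05. The number of arrays limits the precision, and the labels number the animals separately. The fit was tested on simulated data. The collagen genes, the other lists and the tests were chosen with earlier results of these data known. The rule named the called members and 12 abundant or defining chains; Col16a1 and other genes given with values were named after these were seen. Alternatives were normexp background correction (offset 50, on median signals, since no mean signal is in the files), quantile normalization, the series table, other probe filters, the mean over probes, slide as a block, arrays without slide 2, differences within slides, array weights and each array left out. Figures were drawn with matplotlib 3.10.9. The result of 1 gene of the TGF-beta list is not reported here.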

Additional observations from a re-analysis of the deposited data

Results flagged for a closer look

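Among the 14 collagen genes described by array, the lowest and highest array of each of the 3 groups of 4 were set against the rest, 42 groups of 4 values in all. In 2 of them 1 array lay far from the others by Dixon's test of a gap against the range, where chance alone gives about 1 group in 20. Col6a2 stood at -1.615 on TG cerulein replicate 13, with the next array at -0.58 (ratio 0.891). Col15a1 stood at -4.752 on WT cerulein replicate 10, with the next array at -3.51 (ratio 0.864), and this array was not well above background for Col15a1.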

How the results depend on the processing

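No paired analysis was possible because the groups share no replicate numbers. The share of all genes called was counted only for the main fit and for slide as a block, so counts under other settings have no background. After cerulein, the number of collagen genes called higher in TG than in WT (3) was 1 with no filter on dim probes, 0 without slide 2 and 0 to 6 without 1 array, and the median within slide 3 was 0.78. After saline (0), array weights called 5 higher and 1 lower, and leaving out 1 array gave 0. Averaged over both treatments (4), it was 8 with slide as a block, 0 without slide 2, 9 higher and 1 lower with array weights, and 0 to 8 without 1 array. For cerulein against saline in TG (0), 1 was called higher with slide as a block, 5 higher and 1 lower with array weights, and 0 to 2 higher without 1 array, 2 of them without TG cerulein replicate 13. In WT (0), 1 was called lower with no filter and 1 with the mean of a gene's probes, array weights called 3 higher and 2 lower, and 0 to 1 were called higher without 1 array, the 1 without WT saline replicate 5. The median difference of responses within slide 3 was 0.63. Small values changed sign: Col16a1 after saline with the mean of its probes (-0.23), Col15a1 after cerulein with normexp (-0.13) and over -0.19 to 0.29 without 1 array (lowest without WT cerulein replicate 10), and Col15a1 averaged over both treatments with quantile normalization (0.032), without slide 2 (0.084) and over -0.24 to 0.0014 without 1 array. The average over both treatments and the within-slide-2 differences were added after seeing the data. Over single genes and all alternatives, 951 values kept direction and call, 70 lost a call, 33 gained one, 37 without a test moved beyond the spread and 6 changed sign; the cause was not tested. Signal over background limits Col8a1 in WT, and 6 collagens were well above background on 6 arrays or fewer.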
